A study of Mus musculus with 77 samples.

Results

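Chemokines are small secreted proteins that steer the movement of leukocytes, and B cells read them through G protein-coupled receptors on their surface. The receptors Ccr7, Ccr6, Cxcr4, Cxcr5 and S1pr1 set where a B cell sits in a lymphoid organ and when it leaves, whereas the ligands Ccl22, Ccl17, Ccl3, Ccl4 and Ccl5 are products with which activated immune cells attract T cells and other partners. These 10 genes, of 34328 in the gene table, were chosen by name and were followed through 3 histone marks. Each gene was read over its mm10 RefSeq body and the 2 kb on either side, called its window here.

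H3K27ac is a mark of active promoters and enhancers. H2AK119Ub is laid down by Polycomb repressive complex 1 and H3K27me3 by Polycomb repressive complex 2, and both are known for silent or poised genes. CUT&RUN mapped the marks: a nuclease bound to the antibody releases the DNA around the nucleosomes that carry them.

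The cells were CD23+ B cells from the spleens of female mice, a fraction that is mostly follicular B cells. The study removed Xist, the long non-coding RNA of the inactive X chromosome, in 2 systems. In the mb1-cre system all mice carried mb1-cre, which is active throughout the B lineage, and Xist fl/fl ; mb1-cre+ mice were set against WT (mb1-cre+) mice. In the TAT-Cre system B cells from Xist fl/fl mice and from WT mice met 80 µg of the recombinant TAT-cre protein for 45 min in culture, in both genotypes, and only before the 24 h stimulation. Its unstimulated cells had therefore met no Cre, and they are a baseline. Cells were profiled at once (0 h) or after 24 h with 1 µM CpG, an agonist of Toll-like receptor 9. No age of the mice was among the labels used, and neither Xist RNA nor any other RNA was measured in these libraries.

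There were 29 libraries for H3K27me3, 24 for H2AK119Ub and 24 for H3K27ac, in 24 groups of 3 to 5 biological replicates. Each library is represented by 1 list of peaks, which holds only what the caller accepted, so a gene without a peak is a gene where none was called. The H3K27me3 lists held 1955 to 19074 peaks, the H2AK119Ub lists 2004 to 40688 and the H3K27ac lists 1336 to 10393. Read depth is not given, so differences in list length and in depth cannot be told apart. The share of protein-coding genes with a peak ran from 9.39% to 53.0% for H2AK119Ub at 0 h and from 31.6% to 56.6% at 24 h. For H3K27ac it ran from 4.94% to 29.3% at 0 h and from 12.7% to 34.5% at 24 h. For H3K27me3 it ran from 8.90% to 30.5% at 0 h and from 12.9% to 35.0% at 24 h. In H3K27ac all 12 B cell markers had a peak in each of the 24 libraries, Fcer2a, the CD23 gene, among them, against 0 to 2 of 10 T cell markers, 0 to 2 of 10 myeloid markers, 0 to 1 of 6 NK cell markers, 1 to 4 of 8 dendritic cell markers and 2 to 4 of 6 plasma cell markers. The dendritic marker Flt3 and the plasma cell markers Irf4 and Slamf7 had a peak in all 24 libraries. Some markers of other cells moved with stimulation: the NK cell marker Klrb1c had a peak in 0 of 12 libraries at 0 h and 11 of 12 at 24 h, and the plasma cell markers Prdm1 and Xbp1 went from 0 and 3 of 12 to 9 and 12 of 12. The other 5 NK cell markers, and Sdc1 and Jchain, had none in any library, and the part of these cells in the results was not tested.

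RefSeq promoter sequences of the mm10 assembly (GRCm38.p6) were matched for 5 of the 10 genes, and 4 are shown because they stand for the main patterns: Cxcr4, the receptor with both H3K27ac and H2AK119Ub at 0 h and 24 h; Ccl3, which had H3K27ac only in stimulated libraries; Ccr6, a receptor whose H3K27ac signal share fell; and Ccl22, which had Polycomb marks and no H3K27ac. Each run holds the 250 bases before the annotated start, read 5′ to 3′ along the gene, with CG dinucleotides in capitals. They lie at chr1:128592300-128592549 (minus strand), chr11:83649379-83649628 (minus strand), chr17:8235793-8236042 (plus strand) and chr8:94745434-94745683 (plus strand), in the order printed.
Cxcr4: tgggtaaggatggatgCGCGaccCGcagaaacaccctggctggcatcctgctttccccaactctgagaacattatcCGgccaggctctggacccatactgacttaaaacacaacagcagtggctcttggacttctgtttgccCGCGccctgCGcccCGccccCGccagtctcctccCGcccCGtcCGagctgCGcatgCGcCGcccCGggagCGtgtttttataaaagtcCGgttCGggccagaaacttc
Ccl3: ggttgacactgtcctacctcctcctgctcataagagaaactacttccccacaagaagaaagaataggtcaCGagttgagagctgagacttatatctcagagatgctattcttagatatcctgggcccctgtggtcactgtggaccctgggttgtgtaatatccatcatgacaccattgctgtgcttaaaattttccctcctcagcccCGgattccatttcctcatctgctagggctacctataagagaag
Ccr6: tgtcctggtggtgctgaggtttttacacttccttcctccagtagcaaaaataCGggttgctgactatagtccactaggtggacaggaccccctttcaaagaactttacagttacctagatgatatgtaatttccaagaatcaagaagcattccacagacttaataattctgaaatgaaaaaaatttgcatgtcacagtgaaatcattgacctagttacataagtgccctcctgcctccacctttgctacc
Ccl22: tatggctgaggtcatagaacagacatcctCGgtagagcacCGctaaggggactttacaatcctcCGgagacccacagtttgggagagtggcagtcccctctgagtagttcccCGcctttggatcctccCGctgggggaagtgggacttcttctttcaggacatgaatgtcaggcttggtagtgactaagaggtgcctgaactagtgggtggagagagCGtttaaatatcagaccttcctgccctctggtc

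The Cxcr4 stretch held 19 CG dinucleotides, against 6 for Ccl22, 2 for Ccl3 and 1 for the Ccr6 stretch shown. Ccr6 has a further annotated start, whose stretch at chr17:8242276-8242525 is not shown and held 7. The median over 32851 promoters was 6, and 37.8% held 10 or more. Over this Cxcr4 stretch an H3K27ac peak was called in 9 of 12 libraries at 0 h and 12 of 12 at 24 h, and an H2AK119Ub peak in 9 of 12 and 12 of 12. Over the Ccl3 stretch H3K27ac was called in 0 of 12 libraries at 0 h and 9 of 12 at 24 h. Over the Ccr6 stretch shown H3K27ac was called in all 12 libraries at both times and H2AK119Ub in 2 of 12 and 9 of 12. Over the further Ccr6 stretch H3K27ac was also called in all 12 at both times, and H2AK119Ub in 0 of 12 and 6 of 12. Over the Ccl22 stretch H2AK119Ub was called in 0 of 12 and 4 of 12 libraries, H3K27me3 in 0 of 15 and 2 of 14, and H3K27ac in none. Neither the AP-1 letters TGACTCA (in 4.46% of all promoters) nor the kappa B letters GGGNNTTTCC (in 1.41%) were found on either strand of the upstream stretches of the matched members, which says only that those letters are not in these windows.

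Receptors and ligands were told apart by H3K27ac. At 0 h, 57 of the 60 combinations of a receptor and a library had an H3K27ac peak, against 0 of 60 for ligands. At 24 h the counts were 60 of 60 and 18 of 60. Beside them, a median of 12.4% of protein-coding genes per library had an H3K27ac peak at 0 h and 27.5% at 24 h. For H2AK119Ub, receptors went from 19 of 60 (31.7%) at 0 h to 58 of 60 (96.7%) at 24 h. Ligands went from 18 of 60 (30%) to 39 of 60 (65%). The median for protein-coding genes was 34.3% at 0 h and 51.0% at 24 h, so at 0 h both kinds lay near it. H3K27me3 was called in 8 of 75 receptor combinations and 13 of 75 ligand combinations at 0 h, and in 4 of 70 and 6 of 70 at 24 h.

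**Figure D1:**
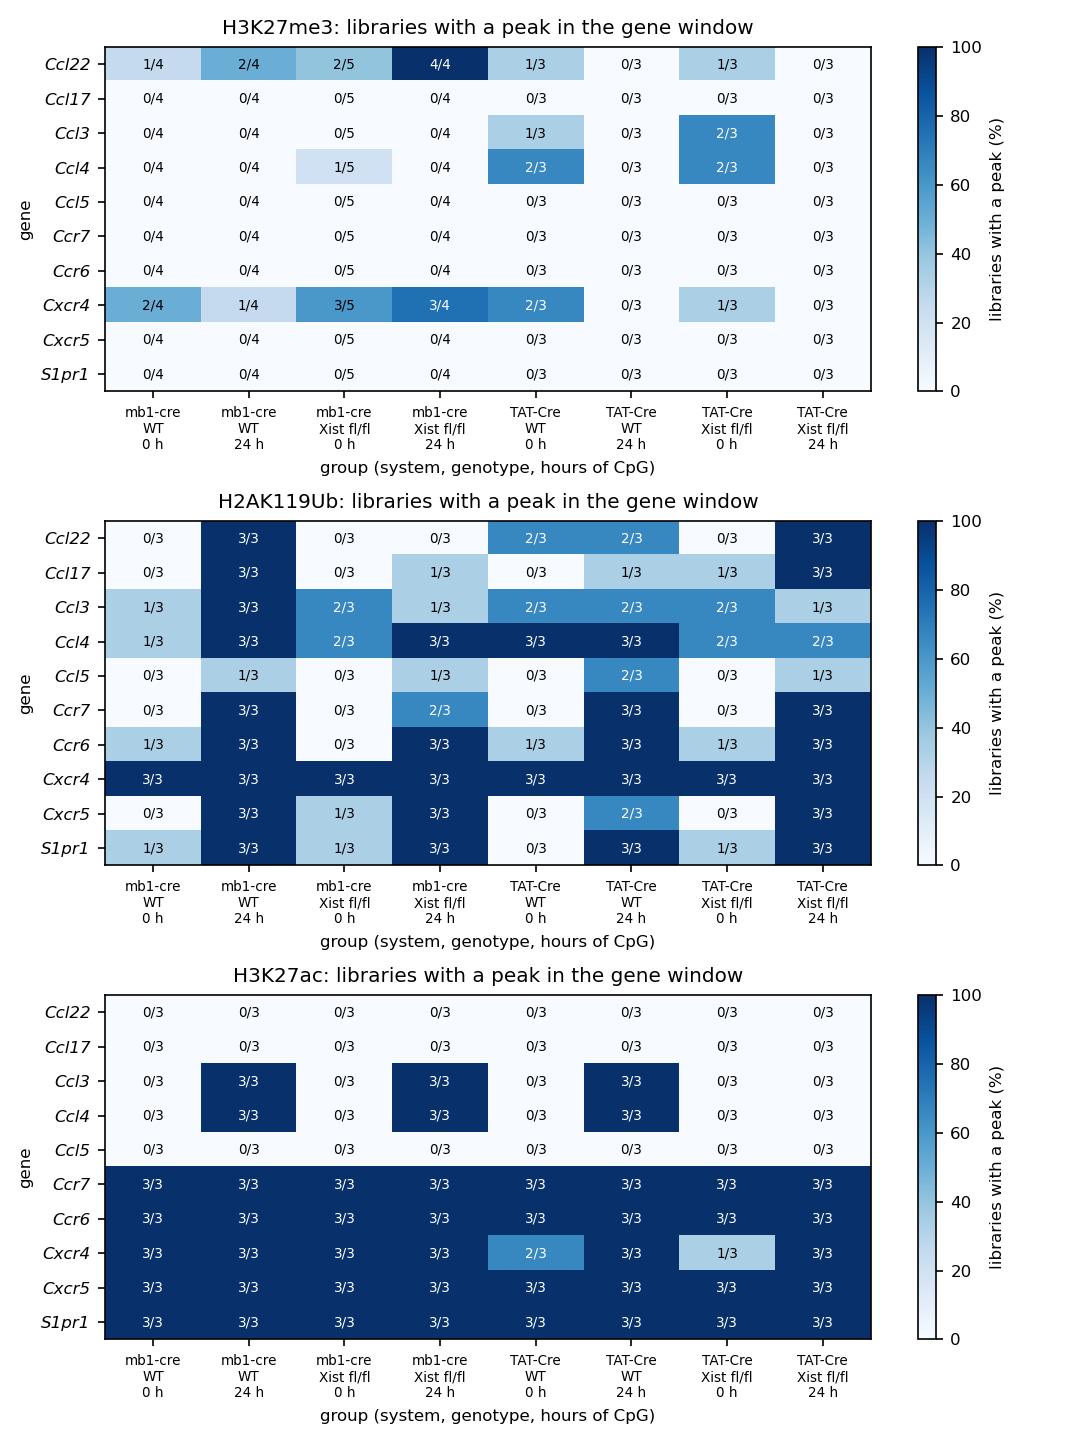
Number of libraries with a peak in the window of each gene (rows) in each group (columns), for H3K27me3, H2AK119Ub and H3K27ac from top to bottom; shading gives the percent of libraries. In H3K27ac the receptor rows are filled at both times, apart from Cxcr4 in TAT-Cre cells at 0 h (3 of 6 libraries). The Ccl3 and Ccl4 rows are filled only in 3 of the 4 stimulated groups, and the Ccl22, Ccl17 and Ccl5 rows are empty.

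Among the receptors, Cxcr5, which reads CXCL13 and brings B cells into follicles, had its window (body 9:44511787-44526444) under H3K27ac peaks almost entirely, at 99.7% on average over 24 libraries. S1pr1, the sphingosine 1-phosphate receptor that leads lymphocytes out of tissues (3:115710433-115715055), was covered to 100% in all 24. Ccr7, the receptor for CCL19 and CCL21 that takes activated B cells to the border of the T cell zone (11:99144199-99155077), averaged 93.3%. Ccr6, the CCL20 receptor (17:8236041-8258519), averaged 82.7%, and Cxcr4, the CXCL12 receptor (1:128588199-128592299), 66.7%. The Cxcr5 window also holds part of the neighbouring gene Bcl9l, so its peaks can belong to either. The highest point of all 24 S1pr1 peaks lay outside the gene's own window, since these peaks had a median width of 52466 bp at 0 h and 38392.5 bp at 24 h.

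Signal was read as a share: the part of a list's autosomal peak signal that fell in the window, in ppm. A peak's signal was spread evenly over its bases, so a peak with its highest point outside the window adds its mean level. This held for 9 of 14 Ccr6 peaks at 0 h and 9 of 17 at 24 h. Ccr6 fell in H3K27ac share. In mb1-cre WT it was 674, 828.7 and 712 ppm at 0 h and 275, 289.6 and 285 ppm at 24 h. In mb1-cre Xist fl/fl it was 811, 913 and 621 ppm at 0 h and 285, 287 and 285 ppm at 24 h. In TAT-Cre WT it was 585, 1057 and 909 ppm against 379, 416 and 388 ppm, and in TAT-Cre Xist fl/fl 911, 517 and 896 ppm against 584, 494 and 479 ppm. The times did not overlap in 3 of the 4 strata (system and genotype), the exception being TAT-Cre Xist fl/fl, where the 0 h library at 517 ppm lay below 1 stimulated library. The fitted difference was -1.10 ± 0.12 (SE) on the log2(ppm + 1) scale over 12 libraries against 12 (limma, adjusted p = 7.5e-08). The percent of the Ccr6 window under peaks showed no such difference, at 0.28 ± 3.77 percentage points (limma, adjusted p = 0.954).

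S1pr1, where all highest points lay outside the window, also fell in signal share. The 12 libraries at 0 h spanned 197 to 438 ppm with a median of 246 ppm, and the 12 at 24 h spanned 108 to 279.6 ppm with a median of 152 ppm. The ranges overlapped across all libraries, but in both mb1-cre strata and in TAT-Cre WT every 24 h value was below every 0 h value. The difference was -0.77 ± 0.17 (limma, adjusted p = 0.000545). Cxcr5 and Ccr7, at -0.19 ± 0.10 and -0.18 ± 0.14, did not pass (adjusted p = 0.121 and 0.278). In trimmed lists the Cxcr5 difference turned, to 0.18, and passed (limma, adjusted p = 0.0369).

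A share falls for a gene when other genes gain peaks. The 1121 genes with an H3K27ac peak in every library had a median stimulation difference of -0.40, and 81.0% of them were below 0, so the Ccr6 and S1pr1 values lie on the low side of a set that mostly fell. Over all 9709 genes fitted, 7.64% passed as lower and 44.7% as higher. Of the 7 members fitted, 2 passed as lower and 2 as higher. The 2 higher were Ccl3 and Ccl4, which read the same peaks in part. The median difference was -0.18 for the 7 members and 1.66 for all genes.

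The percent of the window under H3K27ac peaks rose for 3 members, Ccl3, Ccl4 and Ccr7, where 50.1% of all genes passed as higher. Ccr7 was covered to 51.1% to 100% at 0 h (median 96.9%) and to 100% in all 12 libraries at 24 h, a difference of 13.5 ± 4.5 points (limma, adjusted p = 0.0178, and 0.0502 with the replicate block). The lower values at 0 h belonged mostly to the TAT-Cre system, where WT libraries stood at 51.6%, 51.1% and 76.8%.

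Cxcr4 had an H3K27ac peak in 9 of 12 libraries at 0 h and in 12 of 12 at 24 h. The 3 libraries without one were TAT-Cre WT 0 h replicate 2 and TAT-Cre Xist fl/fl 0 h replicates 1 and 3, and all 3 had lists of 1336 to 1509 peaks. In mb1-cre WT the Cxcr4 share was 133, 180.3 and 146 ppm at 0 h and 37.8, 31.7 and 59.2 ppm at 24 h, and in mb1-cre Xist fl/fl 106, 181 and 108 ppm against 47.0, 63.0 and 33.4 ppm. In these 2 strata all stimulated libraries lay below all unstimulated ones, with differences of -1.85 ± 0.29 and -1.44 ± 0.36 (exact permutation p = 0.1 for each, the smallest that 3 against 3 can give). In TAT-Cre WT the share was 109, 0 and 122 ppm at 0 h and 62.3, 43.1 and 88.1 ppm at 24 h, and in TAT-Cre Xist fl/fl 0, 93.2 and 0 ppm against 110.4, 154 and 80.8 ppm. Over all strata the difference was 0.68 ± 0.91 (limma, adjusted p = 0.522). Without lists of fewer than 3000 peaks, which removes the libraries without a Cxcr4 peak, it was -1.17 and passed (limma, adjusted p = 0.00123).

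**Figure D2:**
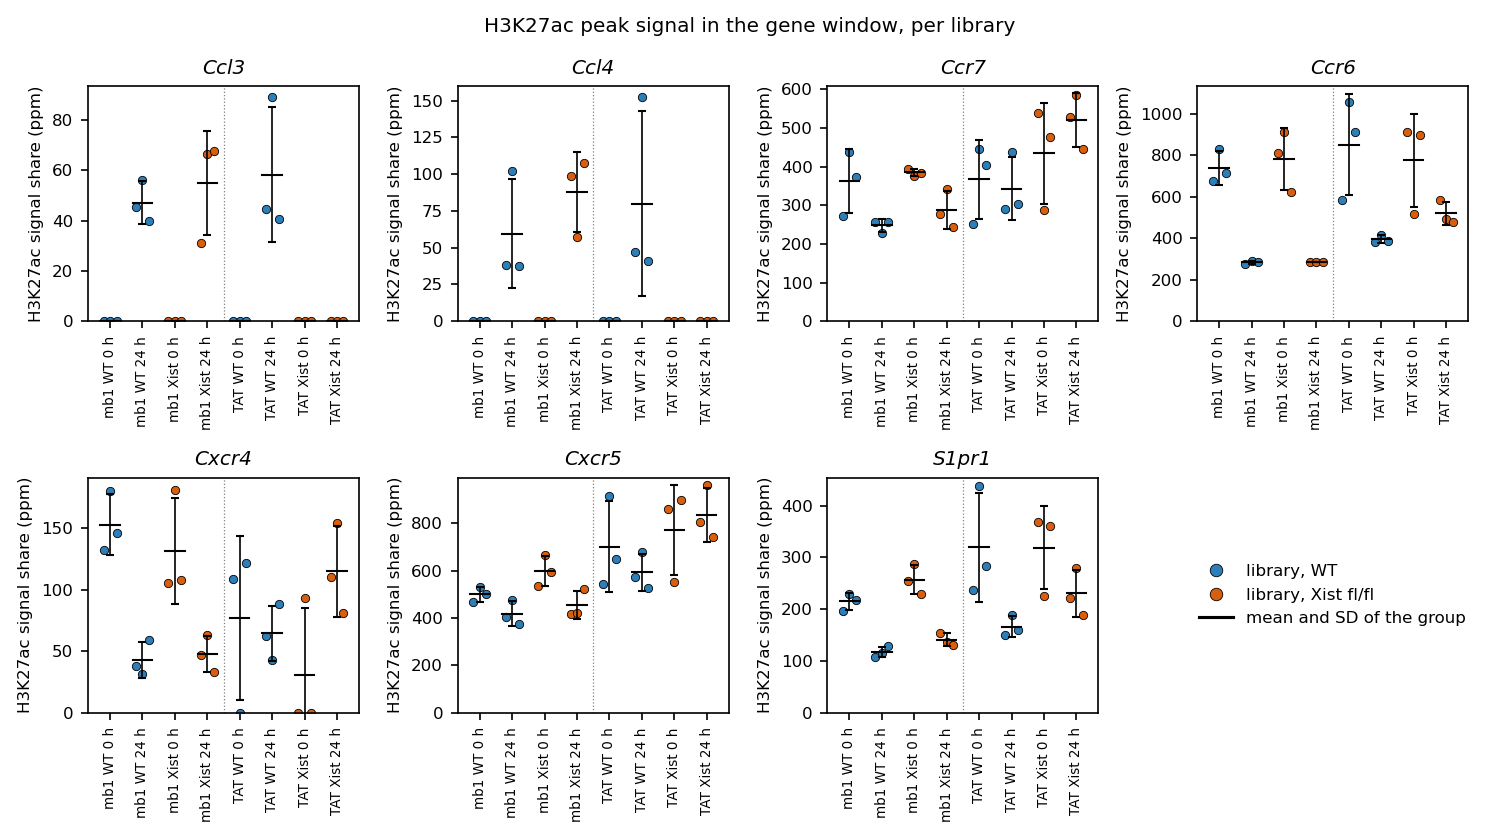
H3K27ac signal share in the gene window (vertical axis, ppm of the list's autosomal peak signal) for every library (points, blue WT and orange Xist fl/fl) of the 8 groups (horizontal axis), with the group mean (line) and SD (bar). Ccl3 and Ccl4 are at 0 ppm in all 12 libraries at 0 h and in the 3 stimulated TAT-Cre Xist fl/fl libraries, and Ccr6 drops from 517 to 1057 ppm at 0 h to 275 to 584 ppm at 24 h.

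Ccl3 and Ccl4 encode the macrophage inflammatory proteins MIP-1 alpha and MIP-1 beta, which attract leukocytes. In mouse they are neighbours on chromosome 11 (bodies 11:83647843-83649378 and 11:83648624-83664683), their annotated bodies overlap, and 1 peak can count for both. Neither had an H3K27ac peak in any of the 12 unstimulated libraries. At 24 h both had one in 9 of 12. The Ccl3 share was 45.4, 56.3 and 39.7 ppm in mb1-cre WT, 31.2, 66.6 and 67.5 ppm in mb1-cre Xist fl/fl and 44.8, 89.0 and 40.8 ppm in TAT-Cre WT. The Ccl4 share was 38.2, 102 and 37.9 ppm, 99.0, 57.1 and 108 ppm, and 46.9, 152 and 40.6 ppm in the same groups. The 3 stimulated TAT-Cre Xist fl/fl libraries had no peak at either gene. In these libraries 12.7% to 21.3% of protein-coding genes had an H3K27ac peak, against 18.7% to 33.8% in stimulated TAT-Cre WT.

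The stimulation difference was 4.28 ± 0.67 for Ccl3 (limma, adjusted p = 1.27e-05) and 4.56 ± 0.71 for Ccl4 (limma, adjusted p = 1.09e-05). In percent of the window under peaks it was 69.6 ± 9.2 points for Ccl3 and 30.9 ± 6.7 points for Ccl4 (limma, adjusted p = 7.82e-06 and 0.000939). As presence of a peak, 0 of 12 against 9 of 12 passed in the deposited lists (exact stratified test, adjusted p = 0.00596 for each gene), where 30.7% of 8004 genes were called as higher. In lists trimmed to the 1336 strongest peaks, the length of the shortest H3K27ac list, only 2 of the 9 libraries kept the peak and the genes were not tested. There 28.5% of the 1753 genes tested were called. Cxcr4 was the only member tested there, and it was not called. The best peak over Ccl3 and Ccl4 ranked at 12.8% to 76.1% of its list from the top, with a median of 19.4%. In the 3 TAT-Cre libraries with a peak, all WT, it ranked at 19.1%, 62.8% and 64.2%.

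At 24 h at least 50% of the libraries shared the H3K27ac interval 11:83645843-83651350, which covers 99.5% of the Ccl3 window and 23.6% of the Ccl4 window. The 9 peaks over Ccl3 had a median width of 13583 bp, and 5 of their 9 highest points lay outside the windows of both genes, at positions between 83640336 and 83641438, below the lower end of Ccl3. Ccl22, Ccl17 and Ccl5 had no H3K27ac peak in any of the 24 libraries. Ccl22 and Ccl17 (8:94745684-94751388 and 8:94809380-94812038) encode the ligands of CCR4, and Ccl5, or RANTES, at 11:83525778-83530518, lies near Ccl3.

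The effect of genotype on Ccl3 and Ccl4 was not the same in the 2 systems. In the stimulated mb1-cre libraries Xist fl/fl minus WT came to 0.15 ± 0.39 for Ccl3 and 0.67 ± 0.55 for Ccl4 with overlapping groups (exact permutation p = 0.8 and 0.3). In the stimulated TAT-Cre libraries it was -5.80 ± 0.35 and -6.07 ± 0.60 with no overlap (exact permutation p = 0.1 for both, the smallest possible). The difference between the systems was -5.95 ± 1.14 for Ccl3 and -6.74 ± 1.22 for Ccl4 (limma interaction, adjusted p = 0.0135 and 0.00909), in a fit added after these values were seen, in which 0.556% of all genes passed. Values against a group at 0 ppm depend on the 1 ppm added before the logarithm and are not fold changes. The TAT-Cre Xist fl/fl lists at 24 h held 4292, 3669 and 6244 peaks, against 5456 to 10009 in TAT-Cre WT and 7409 to 10215 in mb1-cre, and the part of list length in this result was not tested. In these same lists all 5 receptors had an H3K27ac peak in each of the 3 libraries. Most receptor peaks stood higher in the lists, so their presence cannot decide the part of list length. In stimulated TAT-Cre libraries their median ranks were 2.29% for Cxcr5, 2.42% for S1pr1, 4.08% for Ccr6, 5.18% for Ccr7 and 25.5% for Cxcr4. For Ccl3, with peaks in TAT-Cre WT alone, the median was 62.8%, at ranks of 1040 to 6287. The stimulation difference itself was lower in the TAT-Cre system for Ccl4, with TAT-Cre minus mb1-cre at -3.05 ± 0.86 (limma interaction, adjusted p = 0.0463), where 4.01% of all genes passed, and -2.75 ± 0.81 for Ccl3 (adjusted p = 0.0548).

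H2AK119Ub behaved in another way: peaks over most members were few at 0 h and frequent at 24 h. Signal share rose for 7 of the 10 members, where 39.3% of all 20695 genes passed as higher and 6.17% as lower. The median difference was 2.86 for the members and 1.28 for all genes. The percent of the window covered rose for 6 of 10, where 34.1% of all genes passed as higher. The 1668 genes with an H2AK119Ub peak in every library had a median difference of -0.58, so genes marked throughout mostly lost share while others gained peaks.

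Ccr7 had no H2AK119Ub peak in any of 12 libraries at 0 h and one in 11 of 12 at 24 h. At 24 h its window was covered to 29.1%, 78.3% and 97.7% in mb1-cre WT, to 37.4%, 29.4% and 0% in mb1-cre Xist fl/fl, to 64.2%, 60.9% and 18.8% in TAT-Cre WT, and to 33.2%, 16.9% and 60.1% in TAT-Cre Xist fl/fl. The single library without a peak was replicate 3 of stimulated mb1-cre Xist fl/fl. The difference in signal share was 4.96 ± 0.70 (limma, adjusted p = 5.35e-07) and in coverage 43.8 ± 7.7 points (adjusted p = 0.000192).

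Cxcr5 and S1pr1 showed the same order. Cxcr5 had a peak in 1 of 12 libraries at 0 h, mb1-cre Xist fl/fl replicate 2, and in 11 of 12 at 24 h, and its signal share differed by 4.85 ± 0.74 (limma, adjusted p = 1.89e-06). S1pr1 had a peak in 3 of 12 and 12 of 12 libraries, and the covered part at 24 h lay between 26.3% and 74.8% with a median of 45.1%. Its difference was 4.09 ± 0.72 (limma, adjusted p = 1.82e-05). Ccr6 went from 3 of 12 libraries, covered to at most 14.9%, to 12 of 12, covered to 9.04% to 46.9%, with a difference of 4.64 ± 0.74 (limma, adjusted p = 4.14e-06).

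These receptor windows carried H3K27ac at the same time. At 24 h the bases under H2AK119Ub peaks in at least 50% of the libraries were 8009 bp for Ccr7, 10921 bp for Ccr6, 7853 bp for Cxcr5 and 3991 bp for S1pr1, and 100% of each lay within the bases under H3K27ac in at least 50% of the libraries of that mark. For Ccr7, Cxcr5 and S1pr1 this follows from H3K27ac, which covered 100% of their windows. As the cells were profiled in bulk, marks on the same nucleosomes and marks on different cells or alleles cannot be told apart. In S1pr1 the shared H2AK119Ub interval was 3:115713065-115717055, one end of a window that H3K27ac covered in full. In Ccr6 the shared H2AK119Ub intervals ended at base 8245049 of chromosome 17, while H3K27ac ran on to base 8258390.

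**Figure D3:**
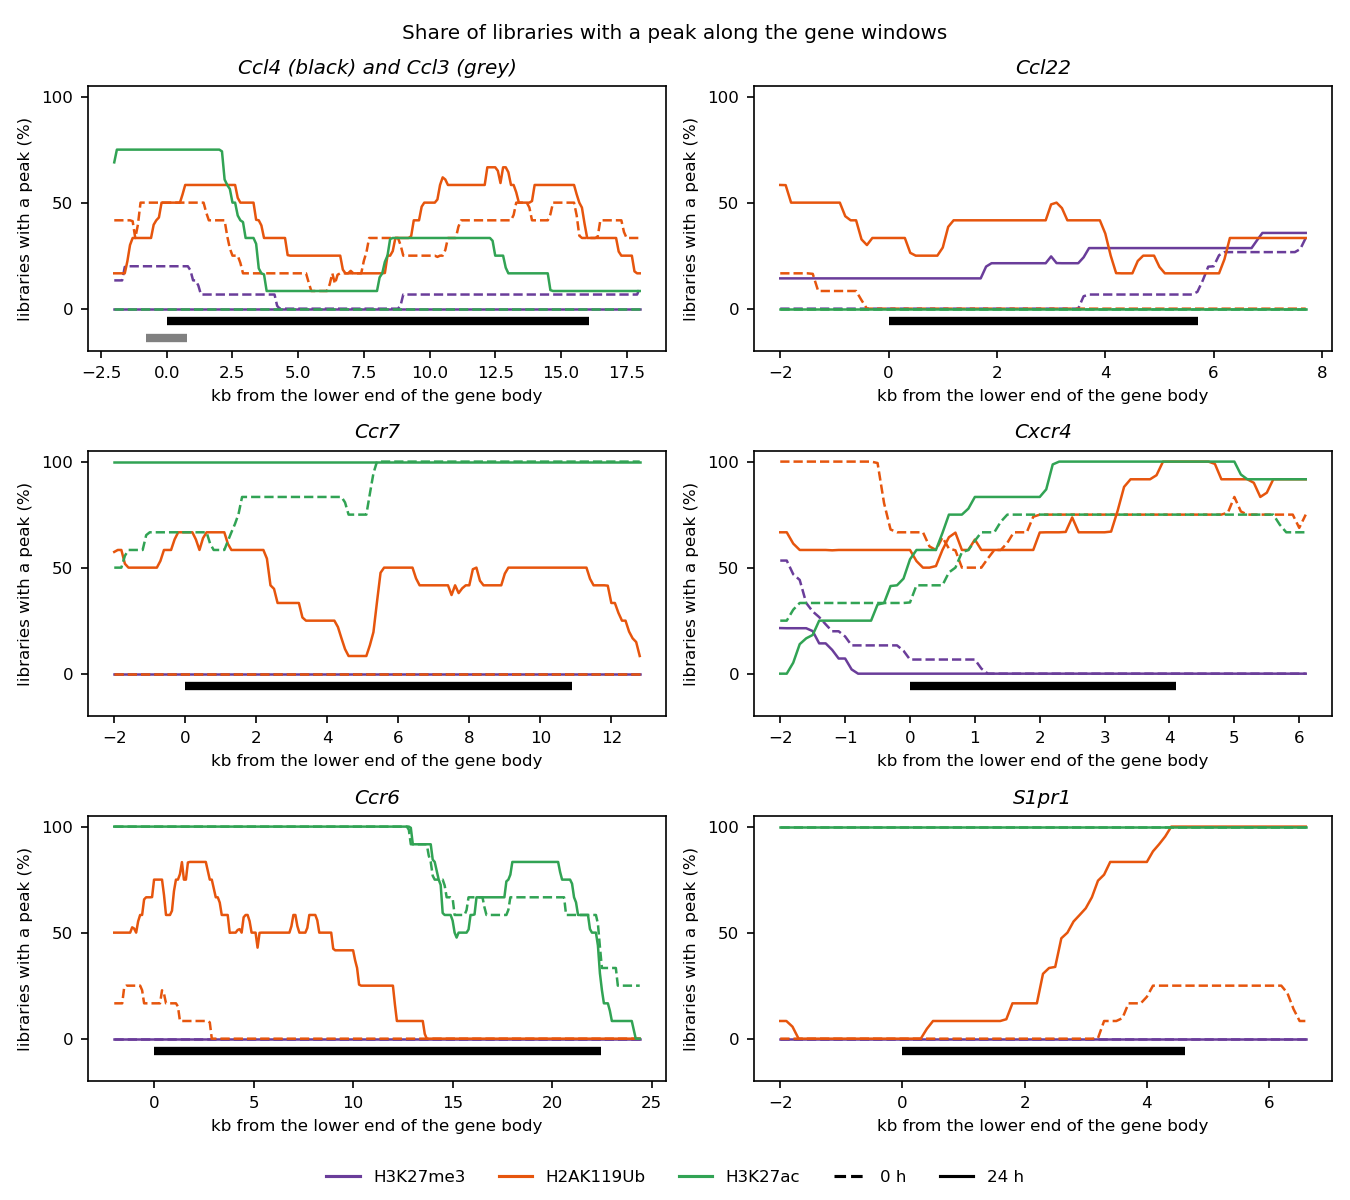
Percent of libraries with a peak (vertical axis) along 6 gene windows (horizontal axis, kb from the lower-coordinate end of the annotated body; black bar, body; grey bar, Ccl3) for H3K27me3 (purple), H2AK119Ub (orange) and H3K27ac (green) at 0 h (dashed) and 24 h (solid). H2AK119Ub is absent from Ccr7 at 0 h and lies inside the H3K27ac domain at 24 h, and Cxcr4 has both marks at both times.

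Among the ligands, Ccl22, Ccl17 and Ccl5 rose in H2AK119Ub. Ccl22 had a peak in 2 of 12 libraries at 0 h and 8 of 12 at 24 h, with a difference of 2.90 ± 0.74 (limma, adjusted p = 0.00183). Ccl17 had a peak in 1 of 12 and 8 of 12, with a difference of 2.83 ± 0.69 (adjusted p = 0.00113), which in the upper 50% of peaks by highest signal was 1.14 and did not pass (limma, adjusted p = 0.125). Ccl5 had a peak in 0 of 12 and 5 of 12, and its difference of 1.31 ± 0.55 lay near the threshold (adjusted p = 0.0471). It missed the threshold when any 1 of 16 of the 24 libraries was left out, without mb1-cre WT 24 h replicate 3 for example, and its coverage did not pass (limma, adjusted p = 0.0826). Ccl4 had a peak in 8 of 12 and 11 of 12 libraries and Ccl3 in 7 of 12 at both times, and neither passed, at 1.33 ± 0.88 and -0.04 ± 0.92 (limma, adjusted p = 0.211 and 0.977). In lists trimmed to equal length, which also drops the weaker peaks, none of the higher H2AK119Ub calls remained. Ccl22, at 1.78, and Ccr6, at 1.64, missed the threshold (limma, adjusted p = 0.0648 and 0.103). Ccl17, Ccl5, Ccr7, Cxcr5 and S1pr1 had too few peaks left to be fitted, so trimmed lists cannot decide their calls. The part of list length was not tested. As presence in the deposited lists, 5 of the 9 members tested were called, as higher, where 11.1% of 18097 genes were.

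**Figure D4:**
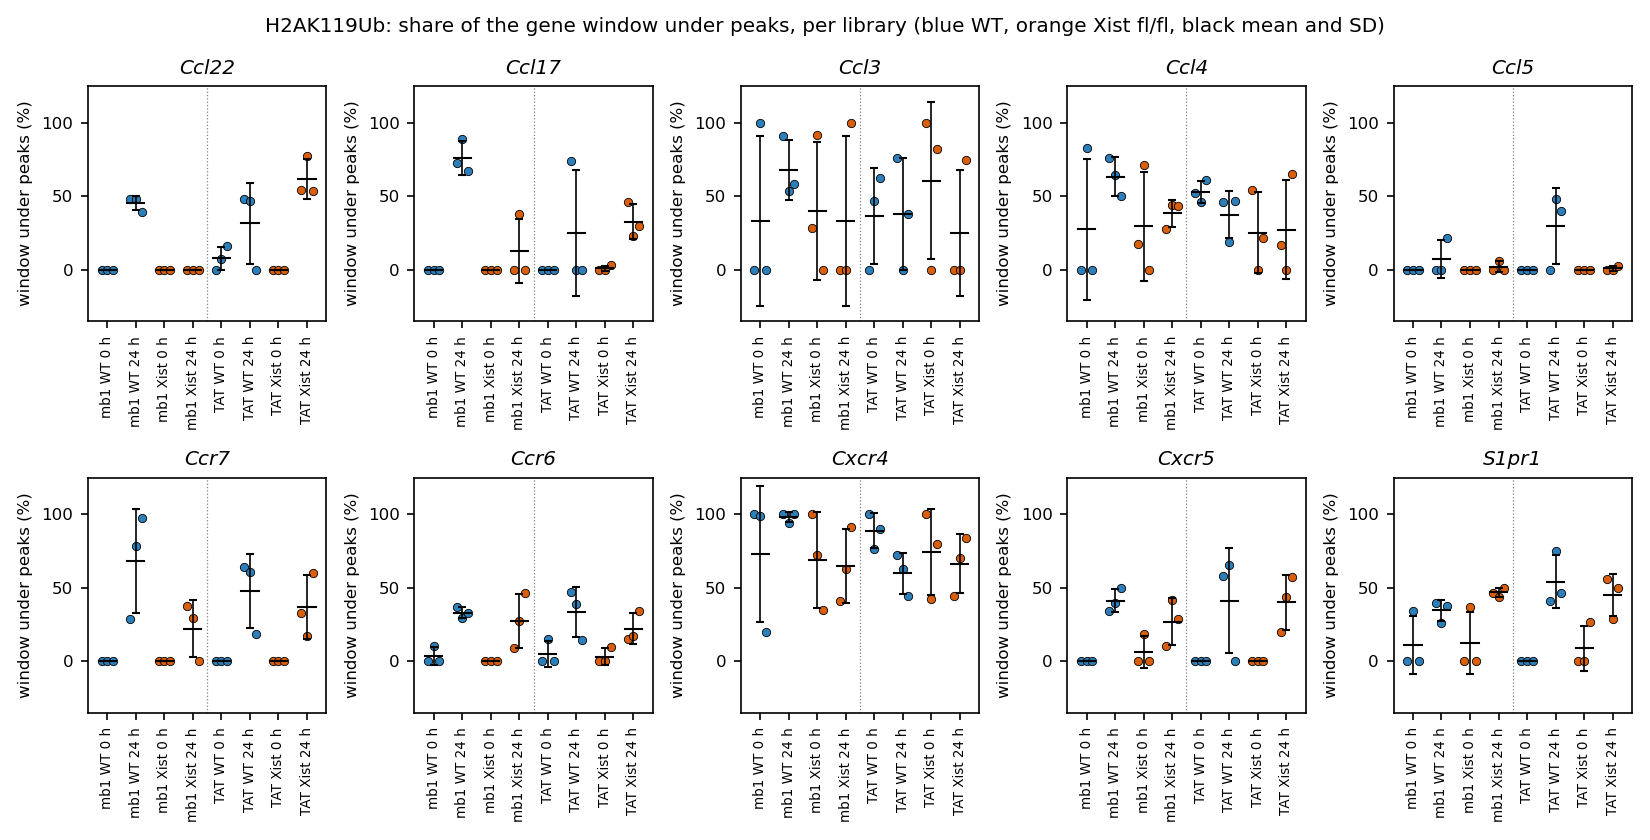
Percent of each gene window under H2AK119Ub peaks (vertical axis) for every library (points, blue WT and orange Xist fl/fl) of the 8 groups (horizontal axis), with the group mean (line) and SD (bar). Ccr7 is at 0% in all 12 libraries at 0 h, Cxcr4 is covered to at least 19.7% in every library, and the stimulated mb1-cre Xist fl/fl libraries are at 0% for Ccl22.

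Cxcr4 was the member with H2AK119Ub in all 24 libraries. Its window was covered to 19.7% to 100% at 0 h (median 84.9%) and to 40.9% to 100% at 24 h (median 71.3%). Its signal share spanned 33.5 to 222 ppm at 0 h (median 73.5 ppm) and 27.1 to 75.6 ppm at 24 h (median 43.7 ppm), with overlapping ranges, and the difference of -0.83 ± 0.38 did not pass (limma, adjusted p = 0.0710). It passed with 5 kb flanks, at -0.98, and with a pseudocount of 10 ppm, at -0.73 (limma, adjusted p = 0.00553 and 0.0323). By signal, the best Cxcr4 peak stood at 0.301% to 8.68% of its list from the top at 0 h (median 0.892%) and at 3.64% to 31.8% at 24 h (median 11.9%), with overlapping ranges. The median width of the peaks was 25798 bp at 0 h, with 1 of 160273 bp, and 6197 bp at 24 h.

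In lists trimmed to the 2004 strongest H2AK119Ub peaks, Cxcr4 was present in 12 of 12 libraries at 0 h and 3 of 12 at 24 h (exact stratified test, adjusted p = 0.00455). It was the only member called there, as lower, where 11.5% of 4306 genes were called as lower and 17.4% as higher. The other members tested there were Ccl4, Ccr6 and Ccl22, and the rest had too few peaks. The 3 stimulated libraries that kept it were mb1-cre WT replicates 1 and 3 and mb1-cre Xist fl/fl replicate 2. In trimmed lists its signal share differed by -5.03 (limma, adjusted p = 0.000127). In TAT-Cre WT the values were 222, 58.9 and 52.3 ppm at 0 h and 47.4, 43.5 and 29.6 ppm at 24 h, without overlap, and in the other 3 strata the times overlapped. At 0 h 14 of the 18 Cxcr4 peaks had their highest point outside every coding gene window, and at 24 h 13 of 19 had it in the Cxcr4 window.

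H3K27me3 was called in 17.3% of ligand and 10.7% of receptor combinations at 0 h, beside a median of 19.9% of protein-coding genes per library. At 24 h it was called in 8.57% and 5.71%, beside 25.7%. Ccl17, Ccl5, Ccr7, Ccr6, Cxcr5 and S1pr1 had no H3K27me3 peak in any of the 29 libraries. Cxcr4 had one in 12 of 29, but they reached in from the lower-coordinate side and covered at most 38.7% of the window, with a median of 2.51% at 0 h and 0% at 24 h. Their highest points all lay outside the window. Ccl3 had a peak in 3 libraries, all TAT-Cre at 0 h, covered to 57.1% in WT replicate 3 and to 73.1% and 78.6% in Xist fl/fl replicates 1 and 3. Ccl4 had one in the same 3 libraries, in TAT-Cre WT 0 h replicate 2 at 0.135% and in mb1-cre Xist fl/fl 0 h replicate 5 at 45.3%. The 3 lists with a Ccl3 peak were long, at 19074, 12535 and 16454 peaks in that order, against 1955 to 7117 in mb1-cre at 0 h. Their best Ccl3 peaks ranked at 47.2% to 96.1% from the top. No H3K27me3 peak over Ccl3 or Ccl4 remained in trimmed lists. No stimulated library had H3K27me3 at Ccl3 or Ccl4 but with -0.96 ± 0.46 and -1.26 ± 0.54 neither passed (limma, adjusted p = 0.237 and 0.182), and 3.03% of 11663 genes did. No member of the 4 fitted was called. Among trimmed lists 1.28% of 3431 genes were called in presence. Cxcr4 and Ccl22 were the only members tested there, and neither was called.

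Ccl22 had H3K27me3 in 11 of 29 libraries. In mb1-cre WT the window was covered to 0%, 0%, 0% and 19.8% at 0 h and to 0%, 8.82%, 0% and 47.9% at 24 h. In mb1-cre Xist fl/fl it was covered to 0%, 0%, 16.3%, 0% and 42.2% at 0 h and to 41.7%, 60.6%, 52.6% and 100% at 24 h. In TAT-Cre cells at 0 h it was covered to 18.6% in WT replicate 3 and 0.278% in Xist fl/fl replicate 1, and in no library at 24 h. The stimulated mb1-cre Xist fl/fl group was thus the only 1 of the 8 with a peak in every library, 4 of 4.

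For stimulated mb1-cre cells, Xist fl/fl minus WT was 49.5 ± 17.1 points (exact permutation p = 0.0571, where 4 against 4 can give 0.0286), and 1 WT library, at 47.9%, lay inside the Xist fl/fl range. Pooled over the strata with Cre the difference was 19.9 ± 8.3 points and did not pass over all genes (limma, unadjusted p = 0.0257, adjusted p = 0.993). The library titled as naive, mb1-cre Xist fl/fl 0 h replicate 5, has a treatment entry of stimulated, and it was the highest of its group, at 42.2% of the window. Most of these peaks were broad and came from the next chemokine gene: 8 of the 11 had their highest point in the window of Cx3cl1, the fractalkine gene (8:94772180-94782427), and their median width was 25777 bp at 0 h and 31912 bp at 24 h. The stimulated mb1-cre Xist fl/fl replicate 3 was different, with a peak of 12341 bp from 94736444 to 94748784 that ended inside Ccl22.

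In the same comparison H2AK119Ub at Ccl22 went the other way. In stimulated mb1-cre cells the window was covered to 48.4%, 48.1% and 39.6% in WT and to 0% in all 3 Xist fl/fl libraries, a difference of -45.3 ± 2.9 points (exact permutation p = 0.1, the smallest possible). In stimulated TAT-Cre cells it was covered to 47.9%, 47.0% and 0% in WT and to 54.3%, 77.3% and 53.6% in Xist fl/fl, a difference of 30.1 ± 17.6 points (exact permutation p = 0.1). Ccl17 was covered to 72.4%, 88.9% and 67.0% in stimulated mb1-cre WT and to 0%, 38.2% and 0% in Xist fl/fl, again without overlap (exact permutation p = 0.1). In signal share the difference between the systems in the genotype effect was 6.59 ± 1.92 for Ccl22 and 5.66 ± 1.90 for Ccl17, and neither passed over all genes (limma interaction, adjusted p = 0.401 and 0.628). The stimulated H2AK119Ub lists held 14806 to 32632 peaks in mb1-cre WT and 9334 to 23425 in mb1-cre Xist fl/fl, and the part of list length was not tested.

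**Figure D5:**
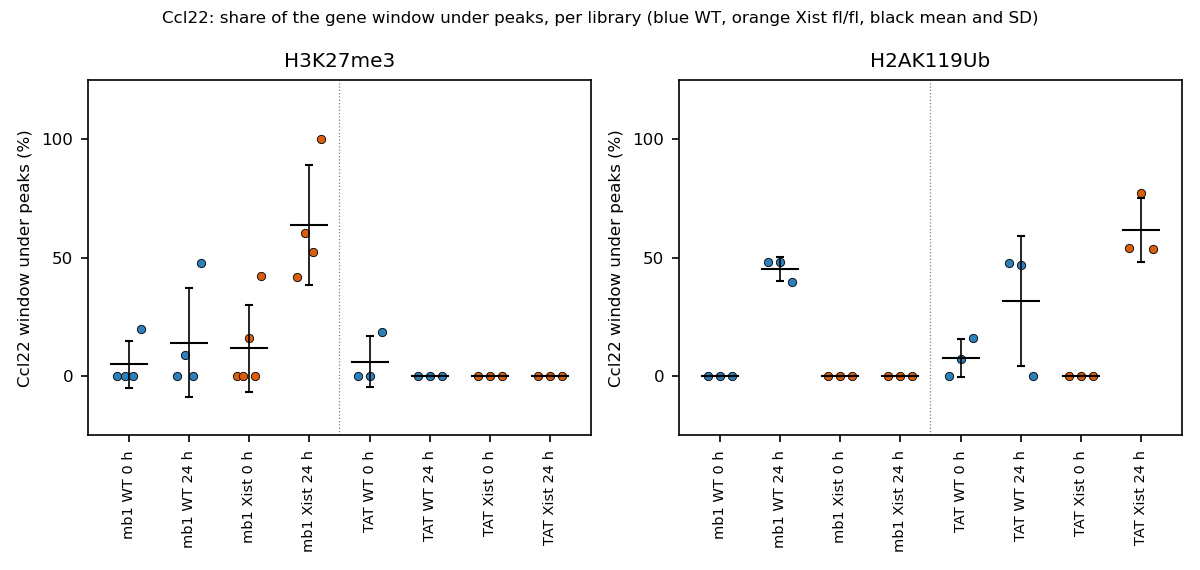
Percent of the Ccl22 window under H3K27me3 peaks (left) and H2AK119Ub peaks (right) for every library (points, blue WT and orange Xist fl/fl) of the 8 groups (horizontal axis), with the group mean (line) and SD (bar). At 24 h in the mb1-cre system, Xist fl/fl libraries lie at 41.7% to 100% in H3K27me3 and at 0% in H2AK119Ub, and WT libraries at 0% to 47.9% and 39.6% to 48.4%.

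Pooled over both systems, no member differed between genotypes in any mark or measure. In signal share 0.0177% of 11280 genes passed for H3K27me3, 0% of 19973 for H2AK119Ub and 0.0105% of 9502 for H3K27ac, so few genes of any kind were called. At an unadjusted p under 0.05 in limma, 5 of 7 members fitted passed in H3K27ac, beside 1024 of all 9502 genes. In H2AK119Ub 0 of 10 did, beside 842 of 19973 genes, and in H3K27me3 0 of 2, beside 606 of 11280. As presence of a peak, 0% of the genes tested were called in each of the 3 marks by the exact test (70, 177 and 149 genes at an unadjusted p under 0.05 in the same order of marks). The 5 members under 0.05 in H3K27ac signal share did not share a direction. Cxcr5, S1pr1 and Ccr7 were higher in Xist fl/fl. Ccl3 and Ccl4, which read the same peaks in part, were lower. The differences were 0.29 ± 0.08 for Cxcr5, 0.32 ± 0.10 for S1pr1, 0.31 ± 0.11 for Ccr7 and 0.16 ± 0.08 for Ccr6 (limma, adjusted p = 0.426, 0.426, 0.453 and 0.472). Cxcr4 was at 0.25 ± 0.25 (limma, adjusted p = 0.677). The genes with a peak in every library had a median of 0.12. Ccl3 was at -1.88 ± 0.79 and Ccl4 at -1.80 ± 0.85 (limma, adjusted p = 0.460 for each). For H2AK119Ub the differences of the 10 members ran from -0.95 ± 0.73 for Ccl5 to 0.90 ± 0.86 for Cxcr5, none past the threshold (limma, adjusted p = 1 for each).

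The 2 systems also differ in handling and mouse line, so a difference between them describes 2 sets of libraries. Cxcr5 had a higher H3K27ac share in the TAT-Cre system, by 0.54 ± 0.10 (limma, adjusted p = 0.00594), where 1.61% of genes passed as higher. In the upper 50% of peaks by highest signal the direction turned, to -1.92, and it did not pass (limma, adjusted p = 0.323). Coverage by H3K27ac was lower in the TAT-Cre system, with TAT-Cre minus mb1-cre at -19.1 ± 4.1 points for Ccr6, -28.7 ± 10.5 points for Cxcr4 and -12.5 ± 4.6 points for Ccr7 (limma, adjusted p = 0.00326, 0.0396 and 0.0408), where 37% of genes passed as lower. Without lists of fewer than 3000 peaks Cxcr4, at -11.4 points, and Ccr7, at -10.05 points, did not pass (limma, adjusted p = 0.24 and 0.0894). H3K27me3 coverage of Ccl22 was lower too, with a difference of -21.8 ± 7.4 points (limma, adjusted p = 0.0306), where 30.2% did. In signal share no member passed for H3K27me3 or H2AK119Ub, where 1.01% and 0% of genes did (2401 and 1316 genes at an unadjusted p under 0.05 in limma).

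A list of 61 other chemokine, chemokine receptor and homing genes, of which 60 were in the gene table, was read in the same way. For H2AK119Ub at 24 h against 0 h, 20 of the 40 fitted rose and 1 fell, where 39.3% and 6.17% of all genes did, and for H3K27ac 7 of 20 rose and 2 fell, where 44.7% and 7.64% did. For H3K27me3 none of 21 was called, and for genotype none was called in any mark. Ccl24, an eosinophil-attracting chemokine, had H2AK119Ub in 0 of 12 libraries at 0 h and 12 of 12 at 24 h, by 4.60 ± 0.63. Klf2, a transcription factor of quiescent lymphocytes that drives S1pr1, went from 1 of 12 to 11 of 12 in H2AK119Ub, by 4.43 ± 0.72. Ackr2, a decoy receptor for inflammatory chemokines, rose in H2AK119Ub from 5 of 12 to 12 of 12 libraries, by 4.44 ± 0.77, and Cxcl12, the ligand of Cxcr4, from 2 of 12 to 11 of 12, by 4.30 ± 0.76. In H3K27ac Itgb1, an integrin chain used in adhesion, went from 0 of 12 to 10 of 12 libraries, by 4.66 ± 0.68. These 5 were among the genes with the smallest adjusted p of the list in limma, from 2.8e-07 for Ccl24 to 1.87e-05 for Cxcl12.

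Genes with the most similar profiles were sought for each member in the mark where its coverage varied most, over the 24 libraries of that mark, as a description only. Such correlations across libraries share list length and stimulation state. For Ccl3 in H3K27ac they were Nfs1, Romo1 and Dynll1 (Pearson r of 0.999, 0.998 and 0.998). For Cxcr4 in H3K27ac they were Fbxo8, Sirt4 and Flna (0.987, 0.986 and 0.986). For Ccr7 in H2AK119Ub they were Tmem107, Atoh1 and Ly6e (0.987, 0.987 and 0.985), and for S1pr1 Pcyox1, Irf4 and Qprt (0.988, 0.976 and 0.970). For Ccl22 in H2AK119Ub the values were lower, with Zxdb, Tcirg1 and Rnf123 at 0.920, 0.890 and 0.889.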

How the data were processed

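CUT&RUN peak lists of CD23+ splenic B cells, 1 per library, were analysed. The submitters' processing notes name Trimmomatic 0.32, Bowtie2 2.3.4.1, Picard, deepTools 3.5.1 and the mm10 build. The list names carry the SEACR terms norm and relaxed; SEACR's version, its control and any scaling to a spike-in are not stated there. The value used, as deposited, is signal: the coverage summed over each peak by the authors, on a scale not shown to be shared between lists. It was therefore divided by the list's autosomal peak signal (ppm), with a peak's signal spread evenly over its bases, and tested as log2(ppm + 1). The percent of the window under peaks and the presence of a peak (1 bp or more) do not use it.

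limma 3.58.1 (trend, robust) was fitted by mark over all genes that had a peak in 3 or more libraries. Genotype was compared within system and time, without TAT-Cre 0 h; stimulation within system and genotype; systems within genotype and time. Presence was compared by an exact test over libraries within strata, for stimulation in lists trimmed to the shortest of the mark (1955, 2004 and 1336 peaks). Benjamini-Hochberg adjustment covered all genes tested, with a threshold of 0.05. Single values were compared by exact two-sided permutation. The limma and presence tests were run on simulated data, with outcomes not given here. For limma these were normal values floored at 0, with shifts only in genes of a mean above the median. Genes at 0 ppm in a whole group were not checked apart. The interaction fit was added after seeing the data. The genes named are the 10 members, at most 6 genes of the other chemokine and homing list by smallest adjusted p (1 of them is not reported here), and the 3 most similar genes per member. The members and lists were chosen with earlier results of these data known. Gene bodies came from RefSeq (GRCm38.p6).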

Additional observations from a re-analysis of the deposited data

Results flagged for a closer look

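The genotype effect on H3K27ac at Ccl3 and Ccl4 in stimulated cells differed between the systems, TAT-Cre minus mb1-cre, by -5.95 and -6.74 on the log2(ppm + 1) scale (limma interaction, adjusted p = 0.0135 and 0.00909). The 3 stimulated TAT-Cre Xist fl/fl libraries had no peak at either gene and the other 9 stimulated libraries had one. Both genes read the same peaks in part. These 3 lists held 3669 to 6244 peaks, and the part of list length was not tested. The stimulation effect on Ccl4 H3K27ac also differed between the systems, by -3.05 (limma interaction, adjusted p = 0.0463), and it rests on the same 3 libraries.

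In H3K27me3, 3 single libraries stood apart from their groups. For Ccl22 the highest of the 4 mb1-cre WT 0 h libraries, replicate 4, was at 13.1 ppm and the others at 0 ppm. For Ccl4 the highest of the 5 mb1-cre Xist fl/fl 0 h libraries was at 26.4 ppm and the others at 0 ppm, and this is replicate 5, the library whose title and treatment entry differ. For Cxcr4 the highest of the 4 mb1-cre WT 24 h libraries was at 0.00383 ppm, a peak that reaches 0.0123% of the window, and the others at 0 ppm. Of groups of 4 or 5 libraries with a value above 0, 9 were examined. A group at 0 ppm in all but 1 library stands out whatever that library's value, so the rate of about 1 in 20 that chance gives elsewhere does not apply to these 3.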

How the results depend on the processing

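Stimulation calls changed when lists were trimmed to equal length, which also drops the weaker peaks. In trimmed lists the number of members past the threshold in H2AK119Ub was 1 instead of 7 for signal share and 1 instead of 6 for coverage, and in H3K27ac coverage it was 1 instead of 3. In H2AK119Ub the 1 member was Cxcr4, which was lower, while Ccl22 (1.78) and Ccr6 (1.64) did not pass (limma, adjusted p = 0.0648 and 0.103) and the members that had risen otherwise had too few peaks left to be fitted. For presence, where trimmed lists were the main choice, the deposited lists called 5 members instead of 1 in H2AK119Ub and 2 instead of 0 in H3K27ac, where 11.1% and 30.7% of all genes were called as higher. In trimmed lists only Cxcr4, Ccl4, Ccr6 and Ccl22 were tested in H2AK119Ub, and only Cxcr4 in H3K27ac. The direction of the stimulation difference in H3K27ac turned for 2 members: Cxcr4 was -1.17 without lists under 3000 peaks (adjusted p = 0.00123) and Cxcr5 was 0.18 in trimmed lists (adjusted p = 0.0369). For Cxcr5 between systems the upper 50% of peaks by highest signal gave -1.92 (adjusted p = 0.323). Between systems, the number of members past the threshold in H3K27ac signal share (1) was 2 with a pseudocount of 10 ppm, 2 in trimmed lists, 0 in the upper 50% and 1 to 4 when single libraries were left out, 4 without TAT-Cre Xist fl/fl 0 h replicate 2. In H3K27ac coverage (3) it was 1 without short lists. In H3K27me3 signal share (0) it was 1 in trimmed lists and 0 to 1 when single libraries were left out, with Ccl22 past the threshold at -2.44 without TAT-Cre WT 0 h replicate 3. In H3K27me3 coverage (1) it was 2 without short lists. For coverage, leaving out short lists and the replicate block were alternatives chosen after seeing the data. The causes were not tested.

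Of the values tried with single libraries left out, 1369 kept direction and side of the threshold, 16 lost the call, all for Ccl5 in H2AK119Ub, and 9 gained it. Of the other alternatives, 655 kept both, 12 lost the call, 8 gained it and 3 turned. Over all genes, the count past the threshold for stimulation was 9416 in H2AK119Ub signal share and 2588 in trimmed lists, 5083 and 1271 in H3K27ac, and 353 in H3K27me3 with a range of 64 to 865. For genotype in H2AK119Ub signal share it was 0 to 63, with 63 without short lists, none of them a member.

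Replicate numbers gave little sign of pairing: same-numbered libraries deviated together (r above 0.1) in 3 of 12 pairs for genotype in H2AK119Ub, 3 of 12 in H3K27ac and 4 of 14 in H3K27me3, and in 0 of 12, 0 of 12 and 1 of 14 for stimulation. The highest r was 0.483, for genotype in H2AK119Ub. For stimulation in H2AK119Ub, 6 of 12 libraries deviated most like their own number, against 2 to 4 in the other comparisons. With groups this small, such values cannot show that the libraries were unpaired. With the replicate block, 6 members instead of 7 passed for stimulation in H2AK119Ub signal share, Ccl5 at an adjusted p of 0.0519, and 2 instead of 3 in H3K27ac coverage, Ccr7 at 0.0502. Read depth is unknown, so no limit of detection can be given.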
